A study of Mus musculus with 6 samples.

Results

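The genes described here are the heat shock proteins, their J-domain and BAG co-chaperones, the subunits of the cytosolic chaperonin and the heat shock factors of mouse liver, compared between Entpd8 knockout and wild-type animals. They were taken by symbol: every protein-coding gene whose symbol begins with Dnaja, Dnajb, Dnajc, Hspa, Hspb, Hsph, Hspd, Hspe, Hsp90 or Hsf, or with Bag or Cct followed by a digit. Of the 45706 genes in the table, 95 met this rule, and 11 pseudogenes with such symbols were left out. By known location of the protein, 51 members were placed in the cytosol and nucleus, 13 in the endoplasmic reticulum (ER) and 8 in the mitochondrion, 6 were heat shock factors, and 17 had another location or were not assigned one.

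Poly(A)-selected liver RNA was sequenced from 3 samples labelled ENTPD-8 KO (KO 1 to KO 3) and 3 samples labelled ENTPD-8 WT (WT 1 to WT 3). Entpd8 encodes NTPDase8, an ectoenzyme that breaks down extracellular nucleotides, and the series asks what it does in liver ischemia. The mice were kept under specific pathogen-free conditions, and the labels give no ischemia or sham treatment, sampling time, sex, age or strain, no description of the knockout allele or of the cells in which it acts, and no word on whether the 3 samples of a group are separate animals. The p-values therefore measure the spread between these samples, which may be technical.

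Molecular chaperones bind unfolded or newly made proteins and help them to fold, to cross membranes or to be degraded. HSP70 proteins do this in cycles of ATP hydrolysis that J-domain (HSP40) proteins start and that nucleotide exchange factors, among them the BAG and HSP110 proteins, bring to an end. HSP90 acts later on partly folded clients, small heat shock proteins hold unfolded chains, and the CCT chaperonin folds actin and tubulin. In the cytosol, protein damage frees the transcription factor HSF1, which binds heat shock elements and switches on the inducible members. The ER has its own HSP70 (Hspa5, BiP) and HSP90 (Hsp90b1, GRP94), controlled by the unfolded protein response, and the mitochondrion has Hspa9 (mortalin) and the chaperonin pair Hspd1 (HSP60) and Hspe1 (HSP10).

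Promoter stretches from RefSeq (build GRCm38.p6) are shown for a few members. They hold letter matches to the elements by which the cytosolic and ER systems are known to be controlled. A heat shock element is a run of alternating GAA and TTC units with a pair of bases between them, and the ER stress response element is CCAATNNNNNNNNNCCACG. Capitals mark matches to GAANNTTC, to TTCNNGAA or to the ER element on either strand.
Hspa1b (chr17:34959295-34959382, minus strand, bases -144 to -57 from the start): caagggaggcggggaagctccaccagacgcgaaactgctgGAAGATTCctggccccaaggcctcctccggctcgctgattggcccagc
Hspb1 (chr5:135887782-135887849, plus strand, bases -137 to -70 from the start): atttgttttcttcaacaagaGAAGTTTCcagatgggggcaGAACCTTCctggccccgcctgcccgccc
Hspe1 (chr1:55088053-55088082, plus strand, bases -95 to -66 from the start): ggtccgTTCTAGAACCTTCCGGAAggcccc
Hspa5 (chr2:34772020-34772048, plus strand, bases -70 to -42 from the start): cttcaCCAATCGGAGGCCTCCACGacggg
Hsp90b1 (chr10:86705523-86705666, minus strand, bases -222 to -79 from the start): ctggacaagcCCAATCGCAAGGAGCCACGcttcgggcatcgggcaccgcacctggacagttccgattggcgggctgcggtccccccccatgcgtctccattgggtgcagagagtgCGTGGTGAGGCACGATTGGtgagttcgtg
Dnajc3 (chr14:118937807-118937865, plus strand, bases -125 to -67 from the start): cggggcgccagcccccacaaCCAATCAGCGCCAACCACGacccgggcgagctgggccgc
Dnajc10 (chr2:80315264-80315311, plus strand, bases -202 to -155 from the start): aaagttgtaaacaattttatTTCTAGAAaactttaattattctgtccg
The first 3 belong to members that were higher in KO livers, the next 3 to ER members that did not pass the test, and Dnajc10 to an ER member that was lower. Cct2, Dnajb6, Dnajc27 and Hspb6, which were not called, also hold GAANNTTC before the start and are not printed.

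Total counts ran from 40800058 to 46473531 in the KO libraries and from 32768774 to 39929978 in the WT libraries. Entpd8 had 0.382, 0.723 and 1.09 CPM in KO 1 to KO 3, against 39.0, 22.4 and 56.5 CPM in WT 1 to WT 3 (log2 fold change -5.72 ± 0.48 (SE), adjusted p = 0.00151, edgeR), and 15, 29 and 52 counts remained in KO 1 to KO 3. CPM are counts brought to a common library total, here after TMM scaling. WT 2 stood apart on the second principal component (16.6% of the variance), scoring 45.8, against -20.2 to 7.64 in the other libraries. Mitochondrially encoded genes took 10.1% to 11.7% of the counts in KO livers and 6.52% to 8.34% in WT livers. None of the 51 cell type markers examined was at 0 in all libraries. Of 7 Kupffer cell markers 4 fell (Clec4f, Cd5l, Csf1r and Vsig4), and their summed level was 43.6 to 53.6 CPM in KO livers and 84.9 to 209 CPM in WT livers. Among bile duct markers 2 of 5 rose (Krt19 and Epcam), with sums of 122 to 312 CPM in KO livers and 80.4 to 109 CPM in WT livers. Of the smooth muscle markers 2 of 3 tested rose (Acta2 and Tagln; 13.6 to 26.8 CPM in KO livers and 10.5 to 11.1 CPM in WT livers), and all 3 red cell markers rose (Hba-a1, Hbb-bs and Alas2; 829 to 1103.9 CPM in KO livers and 268 to 378 CPM in WT livers). Of 8 hepatocyte markers 1 rose (Cyp2e1), with sums of 62381 to 81598 CPM in KO livers and 56274 to 73265 CPM in WT livers, and of 6 stellate cell markers 1 fell (Col1a1), with sums of 96.5 to 209.7 CPM in KO livers and 147 to 202 CPM in WT livers. No endothelial (6), neutrophil (6) or lymphocyte (2 tested) marker was called by edgeR, DESeq2 or limma voom; at an unadjusted p under 0.05, 1 endothelial marker was lower (Lyve1) and 2 lymphocyte markers were higher (Cd3e and Nkg7). Neutrophil markers summed to 78.5, 109 and 101 CPM in KO 1 to KO 3, against 118, 38.4 and 18.2 CPM in WT 1 to WT 3, and lymphocyte markers to 1.43, 1.87 and 2.44 CPM in KO 1 to KO 3, against 1.1, 0.717 and 0.694 CPM in WT 1 to WT 3. WT livers were thus uneven in neutrophil markers, with WT 1 above and WT 2 and WT 3 below the KO range. Endothelial markers summed to 97.2 to 150.4 CPM in KO livers and 110.2 to 153 CPM in WT livers. The part of these shifts in the differences below was not tested. In bulk liver RNA, fewer cells of a type and less RNA per cell cannot be told apart.

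Of the 95 members, 80 passed the filter on low counts and were tested with edgeR's quasi-likelihood test, a gene being called where its p, adjusted by Benjamini-Hochberg over all 14069 genes tested, was under 0.05. In KO livers 18 of the 80 were higher and 7 were lower than in WT livers, and 55 were not called. Over all genes tested, 9.8% were called higher and 10.6% lower, or 20.4% in either direction, beside 22.5% of the tested members higher and 8.75% lower. The median log2 fold change was 0.15 over the tested members and -0.02 over all genes tested. The other 15 members had too few reads, with at most 25 counts in any library, and 6 of them had none at all. Left-out libraries moved these counts: without KO 1, 7 members were higher and 1 was lower, without KO 2 they were 9 and 4, and without KO 3 they were 9 and 5. Hspa1l, called higher, and Cct6b, not called, passed the filter only through the KO libraries, the group where Hspa1l is high. Over the 78 members that passed it in both groups, 17 were higher (21.8%, above the 9.8% of all genes) and 7 lower (8.97%, near or under the 10.6% of all genes), with a median log2 fold change of 0.13.

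Of the 18 higher calls 15 were of cytosolic members, which were also 45 of the 80 members tested. The share called higher was 33.3% in the cytosol and nucleus, 0% in the ER and 25.0% in the mitochondrion, against 9.8% of all genes. The share called lower was 2.22%, 23.1% and 25.0% in the same order, against 10.6% of all genes. In the cytosol and nucleus, 15 of 45 tested members were higher and 1 was lower, with a median log2 fold change of 0.26, which was 0.16 without WT 1 and 0.34 without WT 2. Over the 43 that passed the filter in both groups, 14 were higher and 1 was lower, with a median of 0.23. In the ER, 0 of 13 were higher and 3 were lower, with a median of -0.31. At an unadjusted p under 0.05 the ER counts were 0 higher and 6 lower. At that p, 2366 of all 14069 genes tested were higher and 2697 lower. DESeq2 and limma voom each gave 0 higher and 3 lower in the ER. Mitochondrial members were divided, with 2 of 8 higher, 2 lower and a median of 0.23. The cytosolic count of higher members was 7 without KO 1, 9 without KO 2 and 9 without KO 3, and the ER count of lower members was 1 without KO 1 and 2 without KO 2. Without WT 2, 2 ER members were higher, and without WT 1 the ER median was -0.49. The mitochondrial count of higher members was 0 without any one library except WT 2, and that of lower members was 0 without any one KO library and 1 without any one WT library. All KO libraries lay above all WT libraries for 21 cytosolic (46.7%) and 0 ER members, and below them for 5 cytosolic (11.1%) and 6 ER members (46.2%). Over the 43 cytosolic members that passed the filter in both groups, they lay above for 20 and below for 5. Over all genes tested, the shares were 18.7% above and 22.0% below, or 40.7% without overlap in either direction. These counts describe the lists, and the compartments were not tested against each other.

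**Figure D1:**
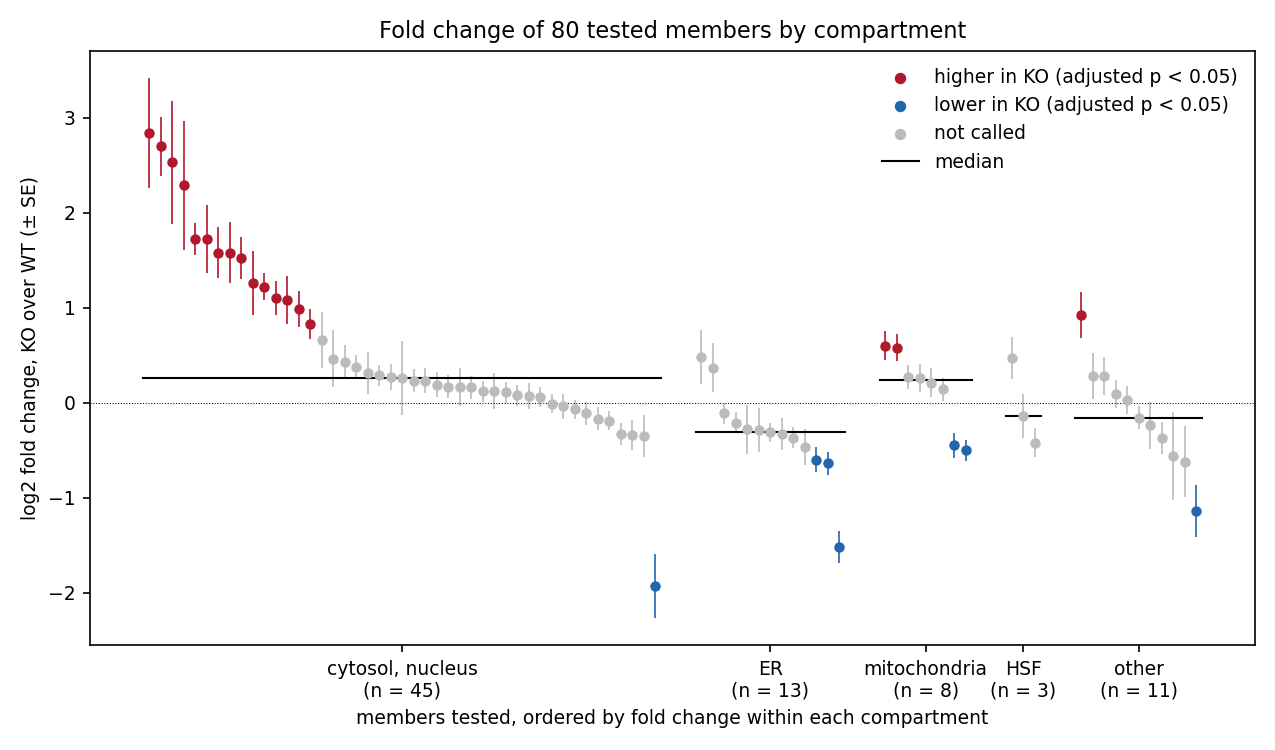
Log2 fold change (KO over WT, points, with SE bars) of the 80 tested members, ordered by fold change within each compartment; red points were called higher, blue points lower and grey points not called, and black lines are medians. The red points gather in the cytosol and nucleus (15 of 45) and none stands among the 13 ER members.

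Among the 4 cytosolic HSP70 genes that passed the low-count filter in both groups, 3 rose (75.0%, against 9.8% of all genes tested). Hspa8 (ENSMUSG00000015656, chromosome 9 from 40800984 to 40810087 on the plus strand in GRCm38) encodes Hsc70, the constitutive HSP70, which also strips clathrin from vesicles. It had 2349, 2697 and 2096 CPM in KO 1 to KO 3, against 849, 1029.6 and 610.1 CPM in WT 1 to WT 3. Every KO library was above every WT library, and the rise was 2.87-fold (log2 fold change 1.52 ± 0.22 (SE), adjusted p = 0.00545, edgeR). The stress-inducible genes Hspa1b and Hspa1a moved further. Hspa1b (ENSMUSG00000090877, chromosome 17 from 34956436 to 34959238 on the minus strand in GRCm38) had 644, 887 and 1079.8 CPM in KO 1 to KO 3, against 219, 106 and 40.6 CPM in WT 1 to WT 3 (log2 fold change 2.84 ± 0.58 (SE), adjusted p = 0.0193). Hspa1a had 265, 468 and 524 CPM in KO 1 to KO 3, against 139, 58.7 and 21 CPM in WT 1 to WT 3 (log2 fold change 2.53 ± 0.65 (SE), adjusted p = 0.038). For both genes the groups did not overlap, KO 3 was the highest library, and the WT livers differed among themselves, with WT 1 highest and WT 3 lowest. The summed neutrophil and lymphocyte markers had the same order in WT livers, and their part in these values was not tested. These 2 genes lie side by side and share most of their sequence, including 296 of the 300 promoter positions compared, so the split of reads between them is uncertain. Their sum does not depend on that split and was 909, 1355 and 1604 CPM in KO 1 to KO 3, against 358, 165 and 61.6 CPM in WT 1 to WT 3.

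These calls rest on few libraries. The call of each was lost when KO 1, KO 2, KO 3 or WT 2 was left out, with adjusted p up to 0.0657 for Hspa1b and 0.114 for Hspa1a, and the log2 fold change of Hspa1b was 3.56 without WT 1 and 2.42 without WT 3. Without WT 1 that of Hspa1a was 3.39, and without WT 3 it was 2.08. Without the low-count filter the adjusted p was 0.0897 for Hspa1b and 0.157 for Hspa1a. Hspa1l, a relative best known from testis, passed the filter through KO livers alone and was called at very low level (0.331, 0.474 and 1.05 CPM in KO 1 to KO 3, against 0.22, 0.128 and 0.0278 CPM in WT 1 to WT 3; log2 fold change 2.29 ± 0.68 (SE), adjusted p = 0.049), and its call was lost without any one of the 6 libraries. Its exons overlap an antisense gene, Gm10501. Hspa2, the fifth cytosolic HSP70, was also higher in every KO library but was not called (log2 fold change 0.66 ± 0.29, adjusted p = 0.138).

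The HSP110 proteins, large relatives of HSP70 that act as its nucleotide exchange factors, were split. Hsph1, the inducible one, had 259, 346.5 and 342.5 CPM in KO 1 to KO 3, against 132, 108 and 46.8 CPM in WT 1 to WT 3 (log2 fold change 1.72 ± 0.36 (SE), adjusted p = 0.0184). The groups did not overlap, and WT 3 was the lowest library. Leaving out any one KO library ended the call, with adjusted p up to 0.0597, as did dropping the low-count filter (0.0538). Hspa4l was not called (log2 fold change 0.43 ± 0.18 (SE), adjusted p = 0.132), but without WT 1 it was, at a log2 fold change of 0.68 (adjusted p = 0.0238). Hspa4, the constitutive HSP110 gene, had overlapping groups (log2 fold change -0.11 ± 0.12 (SE), adjusted p = 0.563).

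**Figure D2:**
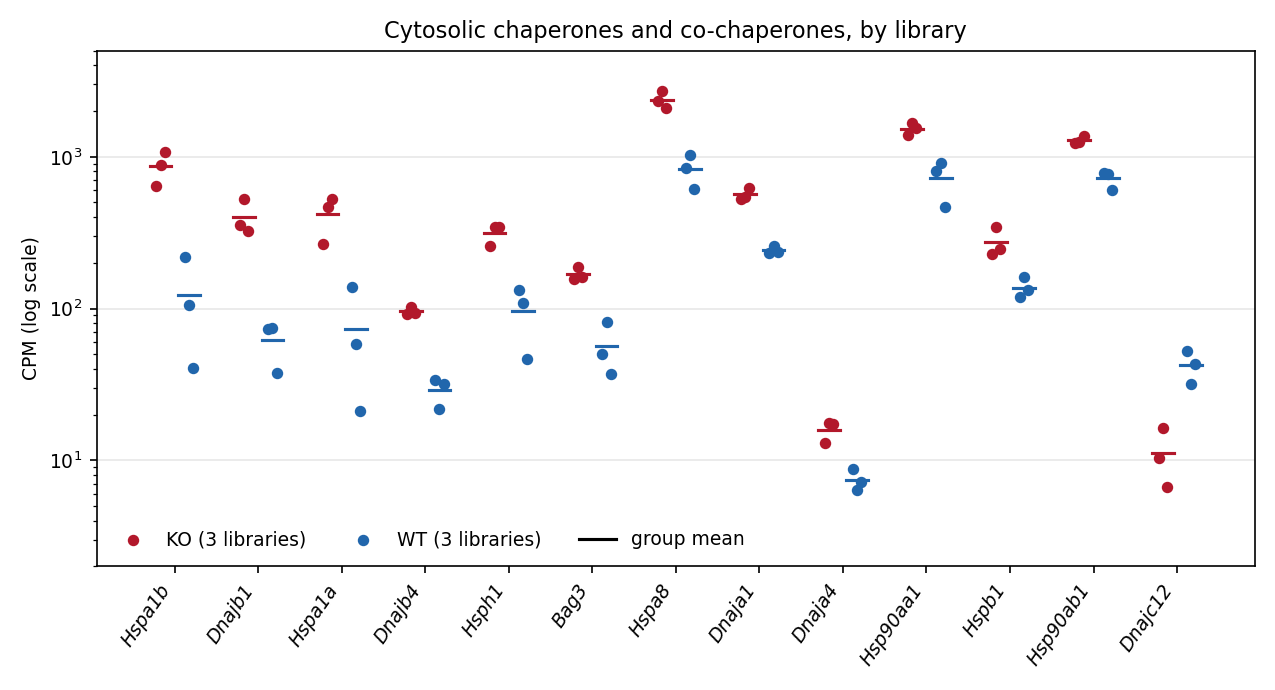
CPM (log scale) in each of the 3 KO libraries (red) and 3 WT libraries (blue) for the cytosolic members that were called and had a mean log2 CPM of at least 1, ordered by fold change; horizontal lines are group means. The groups do not overlap for any gene drawn, and Dnajc12 at the right end is the one that was lower in KO livers.

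Of the cytosolic J-domain proteins that deliver clients to HSP70, 4 of 8 tested DNAJA and DNAJB members rose, against 9.8% of all genes tested. Dnajb1 (ENSMUSG00000005483, chromosome 8 from 83608193 to 83612653 on the plus strand in GRCm38) is the partner of the inducible HSP70 in the heat shock response. It had 353.5, 527 and 325 CPM in KO 1 to KO 3, against 73.0, 74.9 and 37.6 CPM in WT 1 to WT 3. The lowest KO library was far above the highest WT library, and the fold was 6.5 (log2 fold change 2.70 ± 0.31 (SE), adjusted p = 0.00328). Dnajb4, its close relative, had 92.1, 103 and 92.9 CPM in KO 1 to KO 3, against 33.6, 21.9 and 31.7 CPM in WT 1 to WT 3 (log2 fold change 1.72 ± 0.17 (SE), adjusted p = 0.00187). Its KO libraries were close together, and it had the lowest adjusted p of any member. Dnaja1, a farnesylated J-domain protein, had 528, 543 and 624 CPM in KO 1 to KO 3, against 234, 260.0 and 235 CPM in WT 1 to WT 3 (log2 fold change 1.22 ± 0.14 (SE), adjusted p = 0.00266). Dnaja4 was less abundant, with 12.9, 17.5 and 17.4 CPM in KO 1 to KO 3, against 8.73, 6.38 and 7.16 CPM in WT 1 to WT 3 (log2 fold change 1.10 ± 0.18 (SE), adjusted p = 0.00816). Neither group of libraries reached into the other for Dnaja1 or Dnaja4. Exons of Dnaja4 overlap 1581 bases of Wdr61 and those of Dnaja1 overlap 608 bases of Smu1, in both cases on the opposite strand, and without a stated strand setting the reads cannot be told apart there. Dnaja2, Dnajb2, Dnajb5 and Dnajb6 had log2 fold changes of 0.06 to 0.16, with overlapping groups.

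No DNAJC member rose. Of 8 tested in the cytosol and nucleus, 0 were higher and 1 was lower. At an unadjusted p under 0.05, none of the 25 tested DNAJC members of any compartment was higher, while 8 were lower. At that p, 2366 of all 14069 genes tested were higher and 2697 lower. By the adjusted p, 6 DNAJC members were lower in edgeR, DESeq2 and limma voom alike. In edgeR that was 24.0% of them, against 10.6% of all genes tested. The cytosolic member that fell was Dnajc12, a J-domain protein that assists the aromatic amino acid hydroxylases, among them the phenylalanine hydroxylase of hepatocytes. It had 10.4, 16.3 and 6.67 CPM in KO 1 to KO 3, against 52.6, 31.6 and 43.3 CPM in WT 1 to WT 3 (log2 fold change -1.93 ± 0.34 (SE), adjusted p = 0.0114). The highest KO library stayed under the lowest WT library. Without KO 1 the call was lost (adjusted p = 0.0617). Dnajc9, Dnajc21 and Dnajc24 were lower in every KO library than in any WT library, with log2 fold changes of -0.35 to -0.33, and were not called. Without KO 3 one more DNAJC member, Dnajc13, was called lower (log2 fold change -0.56, adjusted p = 0.0493).

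Both cytosolic HSP90 genes rose. Hsp90aa1 (ENSMUSG00000021270, chromosome 12 from 110690605 to 110702728 on the minus strand in GRCm38), the inducible form, had 1389, 1674 and 1545 CPM in KO 1 to KO 3, against 811, 907 and 465 CPM in WT 1 to WT 3 (log2 fold change 1.08 ± 0.25 (SE), adjusted p = 0.0217). Hsp90ab1, the constitutive form, had 1227, 1245 and 1375.5 CPM in KO 1 to KO 3, against 786, 771 and 602 CPM in WT 1 to WT 3 (log2 fold change 0.83 ± 0.16 (SE), adjusted p = 0.0123). In both, KO and WT libraries stood apart, and WT 3 was the lowest. The call of Hsp90aa1 was lost without any one KO library (adjusted p up to 0.0679) and that of Hsp90ab1 without KO 1 (0.0603). The ratio of the 2 in TPM (transcript counts divided by length and scaled to a common total) was 0.93, 1.11 and 0.923 in KO 1 to KO 3, against 0.848, 0.967 and 0.635 in WT 1 to WT 3, and these ranges overlapped.

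Of the 6 BAG co-chaperones, 2 rose (33.3%, against 9.8% of all genes tested). Bag3 (ENSMUSG00000030847, chromosome 7 from 128523616 to 128546981 on the plus strand in GRCm38), which joins HSP70 to small heat shock proteins and to autophagy, had 157, 188 and 161 CPM in KO 1 to KO 3, against 50.4, 81.9 and 37.2 CPM in WT 1 to WT 3 (log2 fold change 1.58 ± 0.27 (SE), adjusted p = 0.0103). Bag2, which inhibits the ubiquitin ligase that works with HSP70, had 3.21, 3.39 and 1.93 CPM in KO 1 to KO 3, against 1.13, 0.999 and 0.722 CPM in WT 1 to WT 3 (log2 fold change 1.58 ± 0.32 (SE), adjusted p = 0.0151). Both had separate groups, Bag2 at a far lower level, and the call of Bag2 was lost without KO 1 (adjusted p = 0.0709). Bag1, Bag4, Bag5 and Bag6 had log2 fold changes between -0.19 and 0.23 and were not called.

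Of the 8 small heat shock genes, 5 were tested and 2 rose. Hspb1 (HSP25), which holds unfolded proteins and stabilises actin, had 227, 342 and 248 CPM in KO 1 to KO 3, against 118, 161 and 132 CPM in WT 1 to WT 3 (log2 fold change 0.99 ± 0.19 (SE), adjusted p = 0.0134). Its lowest KO library exceeded its highest WT library. Hspb7 was called at under 1 CPM in every library (log2 fold change 1.26 ± 0.34 (SE), adjusted p = 0.0359), and its call was lost without any one library. Hspb8, the partner of Bag3, averaged 477 ± 67.5 TPM in KO livers and 378 ± 126 TPM in WT livers (SD, n = 3 each). Its groups overlapped (log2 fold change 0.46 ± 0.30 (SE), adjusted p = 0.311).

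The CCT chaperonin is made of paralogous subunits. The symbol rule leaves out the subunit Tcp1 and takes in Cct6b, which passed the low-count filter only through the KO libraries. In all 6 libraries none of its 8 tested cytosolic subunits was called by edgeR at the usual filter or by limma voom, 2 were higher at an unadjusted p under 0.05, and DESeq2 called those 2 (Cct4 and Cct8). Log2 fold changes ran from 0.07 to 0.38, against 0.83 to 2.84 for the called cytosolic members that rose. Cct8 had the greatest (log2 fold change 0.38 ± 0.12 (SE), adjusted p = 0.0566), with 144, 143 and 146 CPM in KO 1 to KO 3, against 102, 123 and 108 CPM in WT 1 to WT 3. All KO libraries were above all WT libraries for 4 of the 8 subunits (Cct2, Cct4, Cct6a and Cct8), against 18.7% of all genes tested. The same held for Tcp1, which was not called (log2 fold change 0.27 ± 0.11 (SE), adjusted p = 0.117, edgeR). Exons of Cct8 overlap 192 bases of Usp16 and those of Cct6a overlap 452 bases of Psph, in both cases on the opposite strand. Without a stated strand setting the reads cannot be told apart there. Cct8 was called by edgeR with the stricter low-count filter (adjusted p = 0.0461) and, in the usual fit, without WT 2 (0.0303), as was Cct2 without WT 2 (0.0497).

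The main ER chaperones were not called in either direction. Hspa5 (ENSMUSG00000026864, chromosome 2 from 34771970 to 34777547 on the plus strand in GRCm38) encodes BiP, the ER HSP70. It had 1839, 1854 and 1809 CPM in KO 1 to KO 3, against 852.5, 1939.5 and 1155 CPM in WT 1 to WT 3. The KO libraries were nearly equal, and WT 2 was above all of them while WT 1 and WT 3 were below (log2 fold change 0.48 ± 0.28 (SE), adjusted p = 0.256). Hsp90b1 (GRP94) had 837, 852 and 767 CPM in KO 1 to KO 3, against 605, 1247 and 1133 CPM in WT 1 to WT 3, so that WT 1 lay below the KO range and WT 2 and WT 3 above it (log2 fold change -0.28 ± 0.26 (SE), adjusted p = 0.467). Dnajb9 (ERdj4), a BiP co-chaperone induced by the unfolded protein response, had 161, 149.8 and 172 CPM in KO 1 to KO 3, against 88.9, 183 and 101 CPM in WT 1 to WT 3 (log2 fold change 0.37 ± 0.26 (SE), adjusted p = 0.341). WT 1 was the lowest library for all 3 genes and WT 2 the highest. Without WT 2, Hspa5 was called higher (log2 fold change 0.87, adjusted p = 0.0196), as was Dnajb9 (0.76, adjusted p = 0.011), and without WT 1 Dnajb11 was called lower (-0.53, adjusted p = 0.0475). Dnajb11 (ERdj3) and Dnajc3 (p58IPK), further BiP partners, had log2 fold changes of -0.29 ± 0.23 and -0.33 ± 0.17 in all 6 libraries and were not called.

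The ER members that fell were 3 J-domain proteins of low level. Dnajc18, anchored in the ER membrane, had 4.71, 5.41 and 4.23 CPM in KO 1 to KO 3, against 13.4, 11.8 and 15.9 CPM in WT 1 to WT 3 (log2 fold change -1.52 ± 0.17 (SE), adjusted p = 0.00266). No KO library came near the WT range, and the call held without each library in turn. Dnajc10 (ERdj5), a disulfide reductase that helps to clear misfolded proteins, had 24.8, 25.8 and 20.9 CPM in KO 1 to KO 3, against 33.9, 39.4 and 38.3 CPM in WT 1 to WT 3 (log2 fold change -0.64 ± 0.12 (SE), adjusted p = 0.0131). Dnajc16, another ER membrane protein, had 11.3, 9.79 and 11.5 CPM in KO 1 to KO 3, against 16.5, 14.9 and 17.9 CPM in WT 1 to WT 3 (log2 fold change -0.60 ± 0.13 (SE), adjusted p = 0.0191). Their groups did not overlap either. The call of Dnajc10 was lost without KO 1 (adjusted p = 0.0642), and that of Dnajc16 without KO 1, KO 2 or WT 1 (adjusted p up to 0.0814). Hspa13, Dnajb14 and Dnajc14 were lower in all KO than in all WT libraries without being called, Dnajb14 at an adjusted p of 0.0507 and Dnajc14, whose exons overlap Ormdl2 on the other strand, at 0.0582. With upper-quartile scaling both were called lower (0.0299 and 0.0328).

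**Figure D3:**
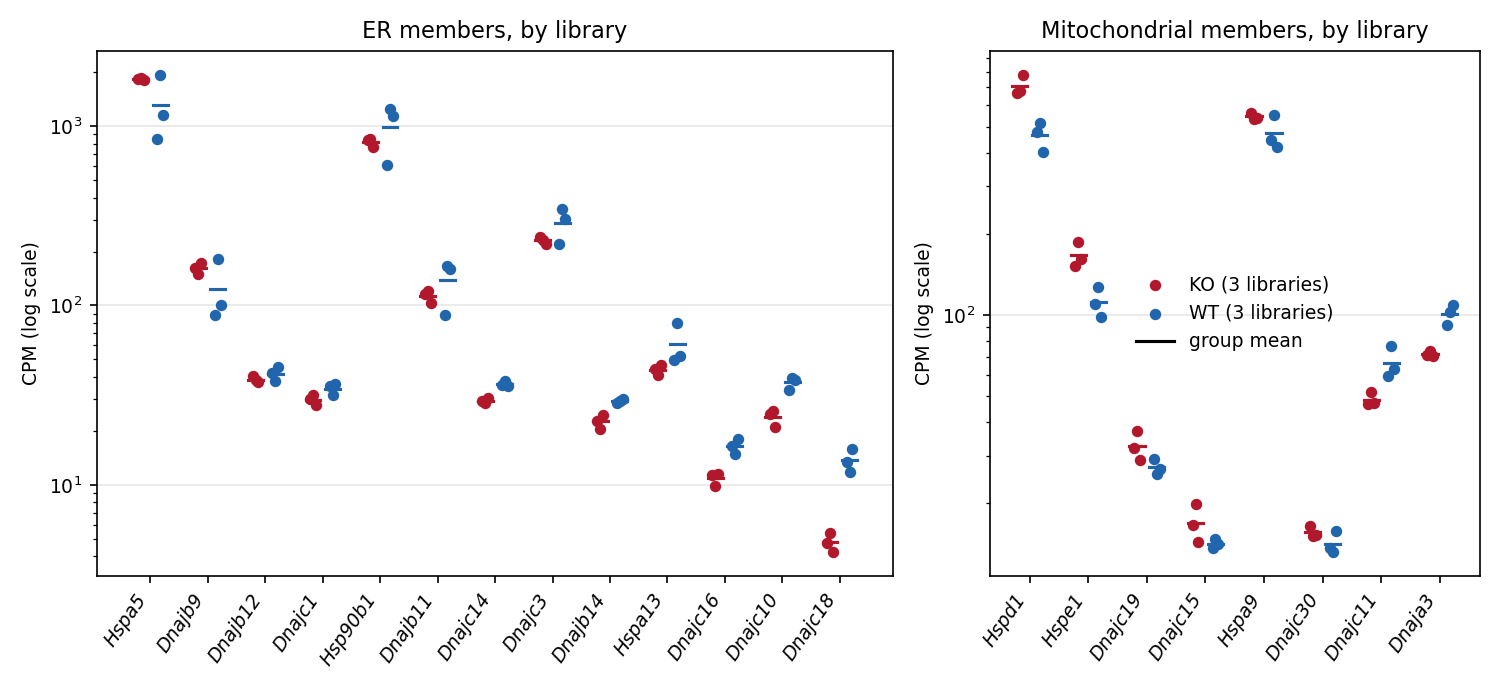
CPM (log scale) in each of the 3 KO libraries (red) and 3 WT libraries (blue) for the 13 ER members (left) and 8 mitochondrial members (right), ordered by fold change; horizontal lines are group means. At the left of the ER panel the WT points of Hspa5 and Dnajb9 straddle the KO points, and at the right end Dnajc18 is lower in every KO library.

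In the mitochondrion the chaperonin pair rose and 2 J-domain proteins fell. Hspd1 (HSP60; ENSMUSG00000025980, chromosome 1 from 55077835 to 55088243 on the minus strand in GRCm38) had 668, 676 and 779.8 CPM in KO 1 to KO 3, against 477, 516 and 404 CPM in WT 1 to WT 3 (log2 fold change 0.60 ± 0.15 (SE), adjusted p = 0.0285). Hspe1 (HSP10), its lid, had 152.5, 187 and 161 CPM in KO 1 to KO 3, against 109.9, 127 and 98.1 CPM in WT 1 to WT 3 (log2 fold change 0.58 ± 0.14 (SE), adjusted p = 0.0275). The pair is read in opposite directions from a shared promoter, and the 2 genes had nearly the same fold (1.52 and 1.49). RefSeq gives Hspd1 a start 216 bases from that of Hspe1 on chromosome 1. It gives another at 55088243, downstream of the Hspe1 start at 55088148, so that the 2 genes overlap there. Dnaja3 (Tid1), the J-domain partner of mortalin, had 70.8, 73.2 and 70.6 CPM in KO 1 to KO 3, against 91.6, 103 and 109 CPM in WT 1 to WT 3 (log2 fold change -0.50 ± 0.11 (SE), adjusted p = 0.0204). Dnajc11, a protein of the inner membrane's cristae complex, had 46.5, 51.7 and 46.9 CPM in KO 1 to KO 3, against 59.2, 76.4 and 63.0 CPM in WT 1 to WT 3 (log2 fold change -0.45 ± 0.13 (SE), adjusted p = 0.041). The groups did not overlap in any of these 4. Hspa9 itself, the mitochondrial HSP70, had 564, 534 and 539 CPM in KO 1 to KO 3, against 447, 551 and 418.5 CPM in WT 1 to WT 3, and its groups overlapped (log2 fold change 0.21 ± 0.15 (SE), adjusted p = 0.353).

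These mitochondrial calls lay close to the threshold. Those of Hspd1 and Hspe1 were lost without any one library except WT 2 (adjusted p up to 0.104 and 0.0843), that of Dnaja3 without any one KO library (up to 0.115), and that of Dnajc11 without any one library (up to 0.178). A processed pseudogene of Hspd1 held at most 0.647% as many counts as Hspd1. Dnajc15, Dnajc19 and Dnajc30 had log2 fold changes of 0.14 to 0.27 with overlapping groups.

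None of the heat shock factors was called. Hsf1, the main activator of the cytosolic response, had 8.17, 7.53 and 8.54 CPM in KO 1 to KO 3, against 11.4, 9.38 and 11.7 CPM in WT 1 to WT 3, so each KO library was slightly below each WT library (log2 fold change -0.42 ± 0.15 (SE), adjusted p = 0.0758). It was called lower when WT 2 was left out (log2 fold change -0.52, adjusted p = 0.0389). Hsf2 had 10.8, 13.3 and 14.1 CPM in KO 1 to KO 3, against 14.1, 9.58 and 18.4 CPM in WT 1 to WT 3, with WT 2 lowest and WT 3 highest (log2 fold change -0.14 ± 0.23 (SE), adjusted p = 0.709), and its fold change was 0.10 without WT 3. Hsf4, best known from the lens, was at 4.04 to 4.35 CPM in KO livers and 2.31 to 3.69 CPM in WT livers and was not called (adjusted p = 0.168). In edgeR 0 of these 3 were called, 1 was lower at an unadjusted p under 0.05 (Hsf1), and DESeq2 and limma voom called none. Hsf3, Hsf5 and Hsfy2 were not tested because of low counts. RNA levels do not measure HSF1 activity, which is set mainly at the protein.

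Of the 11 tested members with another location or none assigned, 1 rose and 1 fell (9.09% each). These shares were near those of all genes tested (9.8% higher and 10.6% lower). Hspbap1, which is no chaperone but is named for binding to a small heat shock protein, had 10.7, 8.22 and 10.3 CPM in KO 1 to KO 3, against 5.79, 6.23 and 3.36 CPM in WT 1 to WT 3 (log2 fold change 0.92 ± 0.24 (SE), adjusted p = 0.0338). Dnajc28, a J-domain protein without an assigned location here, had 3.31, 4.54 and 3.72 CPM in KO 1 to KO 3, against 9.59, 5.3 and 10.6 CPM in WT 1 to WT 3 (log2 fold change -1.14 ± 0.27 (SE), adjusted p = 0.0254). Each was lost without several single libraries, Hspbap1 without KO 1, KO 2, KO 3 or WT 1 and Dnajc28 without KO 1, KO 3, WT 1 or WT 3. Hspa12a and Hspa12b, distant HSP70 relatives, reached at most 1.58 CPM in any library and were not called. Among the untested members, Hsf2bp had 10, 8 and 25 counts in KO 1 to KO 3, against 2, 1 and 2 counts in WT 1 to WT 3, and was called only when no filter was used.

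Levels of different genes were compared as TPM. In WT livers Hspa5 ranked first among the members, and in KO livers Hspa8 did. Hspa8 averaged 1665 ± 98.1 TPM in KO livers and 633 ± 117 TPM in WT livers (SD, n = 3 each). Hspa5 averaged 905 ± 51.0 TPM in KO livers and 704 ± 260.5 TPM in WT livers. Hsp90b1 averaged 449 ± 9.96 TPM in KO livers and 599.7 ± 206 TPM in WT livers, with the KO livers alike and the WT livers spread. Hsp90ab1 averaged 792 ± 102 TPM in KO livers and 484 ± 44.5 TPM in WT livers. The WT means of Hspa5, Hspa8 and Hsp90b1 were within 1 SD of each other, so their order is not settled. The ratio of Hspa8 to Hspa5 was 1.82, 2.07 and 1.65 in KO 1 to KO 3, against 1.42, 0.756 and 0.752 in WT 1 to WT 3. The ratio of Hsp90ab1 to Hsp90b1, cytosolic over ER HSP90, was 1.64, 1.64 and 2.01 in KO 1 to KO 3, against 1.46, 0.693 and 0.596 in WT 1 to WT 3. In both ratios all KO livers were above all WT livers, and WT 1 was the nearest to them. Dnajb1 stood to Dnaja2, a constitutive partner of the same HSP70, at 2.83, 4.56 and 2.75 in KO 1 to KO 3, against 0.648, 0.632 and 0.346 in WT 1 to WT 3. With 3 libraries a group, an exact two-sided permutation test of such a ratio cannot go below p = 0.1.

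Summed over the 51 cytosolic members, TPM was 6440, 7018 and 7270 in KO 1 to KO 3, against 3910, 4162 and 3366 in WT 1 to WT 3, a ratio of means of 1.81. The 13 ER members summed to 1705, 1611 and 1771 TPM in KO 1 to KO 3, against 1139.7, 2150.0 and 1869 TPM in WT 1 to WT 3. The KO livers fell inside the wide WT range. The mitochondrial sum was 1142, 1138 and 1307 TPM in KO 1 to KO 3, against 976, 1038 and 971 TPM in WT 1 to WT 3, and its groups did not overlap. All 95 members together took 0.997% ± 0.0539 of the transcript total in KO livers and 0.671% ± 0.071 in WT livers (SD, n = 3 each).

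**Figure D4:**
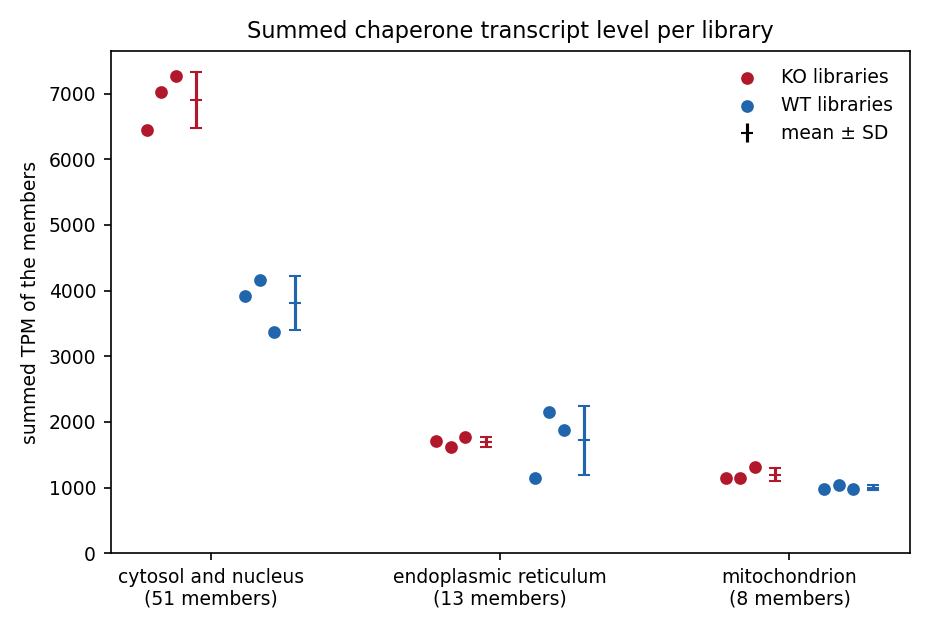
Summed TPM of the cytosolic (51), ER (13) and mitochondrial (8) members in each KO library (red) and WT library (blue), with the mean and SD beside each group. The cytosolic KO points (6440 to 7270) are all above the WT points (3366 to 4162), while the ER points of KO lie within the WT spread.

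Transcripts of ER members are long (median 4042 bases, against 2589 over all genes tested), and genes called lower in KO livers had longer transcripts (median 3277 bases) than genes called higher (2269 bases). The Spearman correlation between transcript length and log2 fold change was -0.19 over the 14023 genes with a length, -0.23 over the 80 tested members and -0.56 over the 13 ER members, as a description across genes of the same 6 libraries. With each library's length trend removed, the ER median was -0.20 and the 3 ER falls were still called, while Dnajc11 and Hspa1l were not.

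Among the 77 members with a RefSeq promoter window (250 bases before to 50 after the start), 17 (22.08%) held GAANNTTC, against 9.04% of the 27025 genes with a window. The element was present in 9 of 15 higher members, 0 of 4 lower members and 5 of 45 members not called. The 9 were Bag3, Dnaja1, Dnaja4, Hspa1a, Hspa1b, Hspb1, Hspd1, Hspe1 and Hsph1. They are not separate sites, since Hspa1a and Hspa1b have nearly the same window and Hspd1 and Hspe1 share a site. In Bag3 and Hsph1 the match to GAANNTTC lies after the start, as it does in Hspb8, which was not called. TTCNNGAA was in 9 members (11.69%, near the 9.6% of all genes), among them Dnajb4 and, as shown above, the lower member Dnajc10. The longer GAANNTTCNNGAA, which contains both, was in 4 members (Dnajb6, Hspd1, Hspe1 and Hsph1) and in 0.66% of all genes. Hspd1 and Hspe1 share 1 site, printed above with Hspe1, and in Hsph1 the match lies after the start. In Dnajb6, which was not called, it lies before the start. The ER element was in 3 of 11 ER members, namely Hspa5, Hsp90b1 (at 2 places) and Dnajc3, in no other member, and in 0.14% of all genes. Matches are letters in a window and show no binding, and no window was matched for Bag4, Cct4, Dnajc2, Dnajc5, Dnajc5b, Dnajc11, Dnajc12, Dnajc18, Dnajc22, Dnajc30, Hsf1, Hsf4, Hsp90aa1, Hsp90ab1, Hspa8, Hspa9, Hspa13 and Hspb2.

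Chaperone genes that the symbol rule leaves out were looked at by compartment as well. Of 26 cytosolic partners, 2 rose (7.69%) and 3 fell (11.5%), with a median log2 fold change of 0.05. These shares were near those of all genes tested (9.8% higher and 10.6% lower). Fkbp4, an HSP90 immunophilin that aids steroid receptors, had 144, 158 and 157 CPM in KO 1 to KO 3, against 81.0, 80.9 and 89.3 CPM in WT 1 to WT 3 (log2 fold change 0.87 ± 0.11 (SE), adjusted p = 0.00416). Fkbp5, its relative and a glucocorticoid-induced gene, moved the other way, with 101, 96.5 and 74.7 CPM in KO 1 to KO 3, against 159.7, 236 and 138 CPM in WT 1 to WT 3 (log2 fold change -0.97 ± 0.22 (SE), adjusted p = 0.0201). The groups were separate in both. St13 (Hip), which holds HSP70 in its ADP state, rose by 0.39 ± 0.11, while the HSP90 co-chaperones Ttc4 (-0.44 ± 0.11) and Cdc37l1 (-0.35 ± 0.10) fell, all on the log2 scale. Fkbp4 was still called without each library in turn, and the others were not: Fkbp5 was lost without any one KO library, St13 and Ttc4 without any one library except WT 2, and Cdc37l1 without any one library. With all 6 libraries, St13 was also lost with upper-quartile scaling, library totals, no filter or the replicate number as a block. Cdc37l1 was lost with RLE size factors, no filter, the block or the length trend removed, and Ttc4 with the block. Stip1 (Hop), which links HSP70 with HSP90, was at a log2 fold change of 0.34 ± 0.11 (adjusted p = 0.0545), and was called with RLE size factors (0.0446), with the length trend removed (0.0499) and by DESeq2 (0.022).

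In the other compartments, edgeR called 0 of 13 ER chaperones outside the rule (median log2 fold change 0.05, and -0.15 without WT 1 and 0.14 without WT 2), and at an unadjusted p under 0.05 and in DESeq2 1 of them (Creld2) was lower, in limma voom none. Creld2, a secreted ER stress gene, had 39.8, 44.9 and 35.4 CPM in KO 1 to KO 3, against 36.4, 145 and 84.8 CPM in WT 1 to WT 3 (log2 fold change -1.15 ± 0.44 (SE), adjusted p = 0.111). Hyou1, the ER HSP110, had 189, 179.5 and 199 CPM in KO 1 to KO 3, against 143, 367 and 280.4 CPM in WT 1 to WT 3 (log2 fold change -0.48 ± 0.30 (SE), adjusted p = 0.297). Sdf2l1, a BiP cofactor, had 29.9, 37.7 and 21.5 CPM in KO 1 to KO 3, against 14.9, 64.1 and 60.3 CPM in WT 1 to WT 3 (log2 fold change -0.65 ± 0.51 (SE), adjusted p = 0.408). In all 3 genes WT 1 was within or below the KO range and WT 2 was the highest library, as for Hspa5, and the calls differed with the WT library left out. Without WT 1 all 3 were called lower, Creld2 at a log2 fold change of -1.53 (adjusted p = 0.0167), Hyou1 at -0.78 (0.0302) and Sdf2l1 at -1.07 (0.0322). Without WT 2 none of them was called, at -0.60, -0.16 and -0.34 in the same order. Sil1, the nucleotide exchange factor of BiP, the lectin chaperone Canx and the disulfide isomerase Pdia3 had log2 fold changes of 0.24 ± 0.12, 0.12 ± 0.13 and 0.13 ± 0.25. For 13 mitochondrial chaperones and proteases the count was 0 in edgeR, at an unadjusted p under 0.05, in DESeq2 and in limma voom, with a median log2 fold change of 0.10. Trap1, the mitochondrial HSP90, had 126, 125 and 127.5 CPM in KO 1 to KO 3, against 87.3, 113 and 109 CPM in WT 1 to WT 3 (log2 fold change 0.29 ± 0.13 (SE), adjusted p = 0.152), above WT in every KO library. The proteases Yme1l1, Spg7 and Lonp1 and the exchange factors Grpel1 and Grpel2 of mortalin were between -0.20 ± 0.11 and 0.19 ± 0.11 on the log2 scale.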

How the data were processed

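Liver RNA of 3 KO and 3 WT samples was enriched for poly(A) RNA and made into libraries with NEBNext kits, per the labels' protocols. The submitters' processing notes name Trim Galore, STAR, Salmon and the build GRCm38; for versions, settings and strand handling, nothing is given in the sources used here. Per the file headers and values, the authors deposited expected counts per gene, estimates of which 8.38% to 9.32% were not whole; they were rounded. After filterByExpr and TMM scaling, 14069 genes were tested two-sided on genotype alone with edgeR 4.0.16 (glmQLFit, robust; R 4.3.3), adjusted by Benjamini-Hochberg at 0.05. Each SE is the size of the log2 fold change over the root of its F statistic. TPM was computed from the deposited counts and the median length of GENCODE M21 basic transcripts. Cct6a was taken as coding from RefSeq, and Hspa14 was not analysed here.

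The members, compartments, related genes and cell type markers were chosen with earlier results of these data known. Values per library are given for called members whose mean log2 CPM reached 1 and for 16 key chaperones, for Bag2, Hspa1l and Cct8, which were chosen after their values were seen, and for up to 6 genes of each related list, those with the lowest p. The alternatives were other scalings (RLE, upper-quartile, library totals), no filter or a stricter one (10 counts in every library of a group and a mean of 1 CPM), no robust weights, DESeq2 1.42.0, limma voom 3.58.1, the replicate number as a block, removal of each library's length trend (lowess span 0.5), leaving out mitochondrially encoded and hemoglobin genes, and leaving out each library. Counts over members that passed the filter in both groups were added after seeing the data. The fit was tested on simulated data. No library was a duplicate, since pairs of the same group varied 35 to 141 times as much as counting alone would give. Totals of 32768774 to 46473531 counts limit precision for members under about 1 CPM. Promoter windows are from RefSeq (GRCm38.p6).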

Additional observations from a re-analysis of the deposited data

How the results depend on the processing

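Replicate numbers did not pair the samples (correlations of deviations -0.0762, 0.0126 and -0.0853), and with them as a replicate block 807 genes were higher and 661 lower, 4 members were lower, 1 mitochondrial member was higher and 0 were lower, and of the cytosolic partners 1 was higher and 1 lower; 17 members were called in all, each also called without the block. The median log2 fold change of all genes was -0.07 with upper-quartile scaling, -0.10 with library totals alone and 0.02 with no low-count filter, and that of the members was 0.07 with library totals. ER members called lower were 5 with upper-quartile scaling, and the ER median was -0.20 with the length trend removed. Mitochondrial members called lower were 1 with RLE size factors and 1 with the length trend removed. Of the cytosolic partners, 1 was higher with upper-quartile scaling, 1 with library totals and 1 with no filter, and DESeq2 called 1 ER chaperone outside the rule lower. Leaving out each library in turn gave 385 to 1390 genes higher and 218 to 1690 lower, 7 to 18 members higher and 1 to 7 lower, and a member median of 0.10 to 0.23. By compartment it gave 7 to 14 cytosolic members higher and 0 to 1 lower, 0 to 2 ER members higher and 1 to 3 lower with a median of -0.49 to -0.23, and 0 to 2 mitochondrial members higher and 0 to 1 lower. For the related lists it gave 1 to 3 cytosolic partners higher and 0 to 2 lower, and 0 to 3 ER chaperones outside the rule lower. The log2 fold change of Hsf2 ran from -0.35 to 0.10, above 0 without WT 3, and that of Pdia3 from -0.13 to 0.29, under 0 without WT 1. The causes were not tested. Members called ran from 17 with the block to 27 with DESeq2 among the alternatives in all 6 libraries, and from 8 without KO 1 to 25 without WT 2, of which 20 were also called in all 6. Depth limits members under 1 CPM, such as Hspb7 and Hspa1l.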
